A study of Mus musculus with 6 samples.

Results

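The killer cell lectin-like receptors of the NKG2, Klri, Klre1 and Klrg1 groups are 9 genes, chosen by name and receptor group with earlier results of these data known: Klrc1, Klrc2, Klrc3, Klrd1, Klrk1, Klri1, Klri2, Klre1 and Klrg1. All 9 were found among the 55471 gene IDs of the tables, and 8 of them passed the filter on low counts and were tested with 12546 genes in all. Bulk RNA sequencing had been run on OT-I CD8+ T cells, whose receptor recognises an ovalbumin peptide, sorted on CD90.1 from orthotopic KPC_OVA pancreatic tumours 7 days after transfer. Donor cells of all libraries carried a constitutive Cas9 knock-in (OT-I:Rosa26-Cas9) and a lentiviral guide with the CD90.1 reporter, and all recipients received anti-PD-1. In 3 libraries the guide targeted Elovl1 (sgElovl1), which encodes an elongase of saturated very long chain fatty acids, and in 3 it was non-targeting (sgNT). The sgElovl1 replicates 1 and 2 were RNA pooled from 2 tumours each, and each was counted as 1 sample. The labels do not give the age of the mice or say whether both groups shared donors, so donor genotype at the receptor loci and guide cannot be told apart here.

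These genes encode type II membrane proteins with a C-type lectin-like domain that NK cells and antigen-experienced CD8+ T cells carry. CD94 (Klrd1) pairs with NKG2A (Klrc1) into an inhibitory receptor, or with NKG2C (Klrc2) or NKG2E (Klrc3) into activating ones, and all of these bind the non-classical MHC molecule Qa-1, encoded by H2-T23. NKG2D (Klrk1) is an activating homodimer that binds stress-induced ligands and signals through DAP10, the product of Hcst, while KLRE1 pairs with KLRI1 or KLRI2 and KLRG1 is an inhibitory receptor for cadherins. The inhibitory chains hold an immunoreceptor tyrosine-based inhibition motif (ITIM) in the cytoplasmic tail, which recruits phosphatases, and the activating chains lack it and signal through adaptors.

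The split into inhibitory and activating chains can be read in the first coding bases, which encode the cytoplasmic tail. The first 75 coding bases (GENCODE M21 transcripts on GRCm38, 5′ to 3′) are shown for the NKG2 chains and Klrg1, with the codons of an ITIM in capitals. An ITIM was taken as isoleucine, valine, leucine or serine, any residue, tyrosine, any pair of residues, and leucine or valine. All 4 genes lie on the minus strand of chromosome 6, and their first coding base is at 129678910 for Klrc1, 129660556 for Klrc2, 129643288 for Klrc3 and 122282811 for Klrg1.
Klrc1: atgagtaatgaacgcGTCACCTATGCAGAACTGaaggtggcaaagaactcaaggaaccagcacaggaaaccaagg
Klrc2: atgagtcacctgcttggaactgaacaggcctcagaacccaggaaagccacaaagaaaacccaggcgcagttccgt
Klrc3: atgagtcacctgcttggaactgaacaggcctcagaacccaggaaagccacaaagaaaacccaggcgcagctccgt
Klrg1: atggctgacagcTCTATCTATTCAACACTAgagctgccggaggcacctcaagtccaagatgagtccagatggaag
Within the first 60 residues, Klrc1 and Klrg1 held 1 ITIM each, starting at residue 6 and residue 5, and Klrc2 and Klrc3 held 0. The Klrc2 and Klrc3 proteins, of 238 and 221 residues, were identical at 91.0% of aligned residues and 95.3% of aligned coding bases. Klrc1, with 227 residues, was identical to Klrc2 at 71.8% of residues and 86.3% of bases.

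The Klri pair shows the same split, and the first 180 coding bases are shown because the second motif of Klri1 lies further in. Both genes are on the minus strand, with the first coding base at 129717122 for Klri1 and 129740418 for Klri2.
Klri1: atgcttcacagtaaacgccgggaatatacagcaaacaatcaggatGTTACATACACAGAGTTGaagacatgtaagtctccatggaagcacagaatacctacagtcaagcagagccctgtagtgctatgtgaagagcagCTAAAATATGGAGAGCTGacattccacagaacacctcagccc
Klri2: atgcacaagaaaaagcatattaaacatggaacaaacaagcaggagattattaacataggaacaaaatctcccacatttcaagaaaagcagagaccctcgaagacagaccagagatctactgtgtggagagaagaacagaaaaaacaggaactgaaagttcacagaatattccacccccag
Klri1 held 2 ITIMs, starting at residues 16 and 47, and Klri2 held 0. Their proteins, both of 248 residues, were identical at 63.6% of aligned residues. Klrk1, Klrd1 and Klre1 also held 0 ITIMs in their first 60 residues.

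Elovl1, the targeted gene, was lower in every sgElovl1 library. Values of 3 libraries are given throughout in the order of the replicate numbers. The TMM-normalised CPM of Elovl1 (ENSMUSG00000006390, chr4:118428093-118432953), its count scaled to a common library size, was 81.5, 76.6 and 95.4 in sgElovl1 and 283, 280 and 255 in sgNT (log2 fold change -1.69, SE 0.12, adjusted p = 8.7e-05). Libraries held between 21980273 and 26165380 expected counts in total. The median log2 fold change of all tested genes was 0, and 13.8% of them were called at an adjusted p under 0.05, 8.64% higher and 5.13% lower in sgElovl1. Summed TPM (the share of transcripts, scaled for gene length) of 7 CD8 T cell markers was 19539 to 20862 in sgElovl1 and 24877 to 26619 in sgNT. Of these 7 markers, 1 was called higher and 3 lower. Trac made up most of the sum, at 15456 to 16918 TPM in sgElovl1 and 20464 to 22001 TPM in sgNT. Cd3e went the other way, at 807 to 982 TPM in sgElovl1 and 684 to 732 TPM in sgNT. Of the NK cell markers, Klra8 was at 0 in every library and Ncr1, which encodes NKp46, had 0 to 4 counts. Klra9 had 0 counts in sgElovl1 and 3 to 7 in sgNT, and Klrb1c, which encodes NK1.1, was called lower, with 7 to 19 counts in sgElovl1 and 35 to 114 in sgNT. The 8 NK cell markers, of which 4 were tested, 1 was called lower and 0 higher, summed to 106 to 299 TPM in sgElovl1 and 82.7 to 317 TPM in sgNT, mostly from Fcer1g (78.2 to 223 and 74.4 to 289 TPM), which the macrophage list also holds. Of the 11 macrophage and monocyte markers, 3 were called higher and 0 lower. The 11 summed to 226 to 565 TPM in sgElovl1 and 142 to 375 TPM in sgNT. In TPM, Fcer1g, Cd68, C1qb and Tyrobp overlapped between the groups. All the others (Lyz2, Adgre1, Csf1r, C1qa, Fcgr1, Itgam and Apoe) were higher in every sgElovl1 library than in any sgNT library. Lyz2 had 54.8 to 157 TPM in sgElovl1 and 1.04 to 12.9 TPM in sgNT. Adgre1 had 19 to 68 counts in sgElovl1 and 0 in every sgNT library. The 5 tumour epithelium markers summed to 233 TPM in sgElovl1 replicate 3 and 714 TPM in sgNT replicate 3. In the other libraries they summed to at most 31.1 TPM. The part of these cells in the receptor values was not tested, and in bulk RNA fewer cells of a type and less RNA per cell cannot be told apart.

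The receptor genes spanned the whole range of expression. In sgNT, Klrc1 at 616 to 741 TPM, Klrd1 at 524 to 818 TPM and Klrk1 at 552 to 681 TPM overlapped in level and stood above the other members, and in every library each of the 3 lay above at least 97.6% of the genes with a count. Klrc2 at 124 to 133 TPM overlapped with Klre1 at 98.4 to 145 TPM, Klrg1 followed at 27.2 to 32.6 TPM, and Klri2 at 4.75 to 7.25 TPM overlapped with Klrc3 at 4.73 to 6.64 TPM. In sgElovl1 the order was Klrd1 at 919 to 1191 TPM and Klrk1 at 831 to 928 TPM, which overlapped, then Klrc1 at 418 to 524 TPM and Klrc2 at 303 to 398 TPM, which did not. Below them came Klre1 at 92.4 to 121 TPM, Klrg1 at 18.3 to 21.7 TPM overlapping with Klrc3 at 17.3 to 19.2 TPM, and Klri2 at 1.42 to 2.20 TPM. Klri1 had between 0 and 3 counts per library, so a difference in it was not detectable at this depth.

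**Figure D1:**
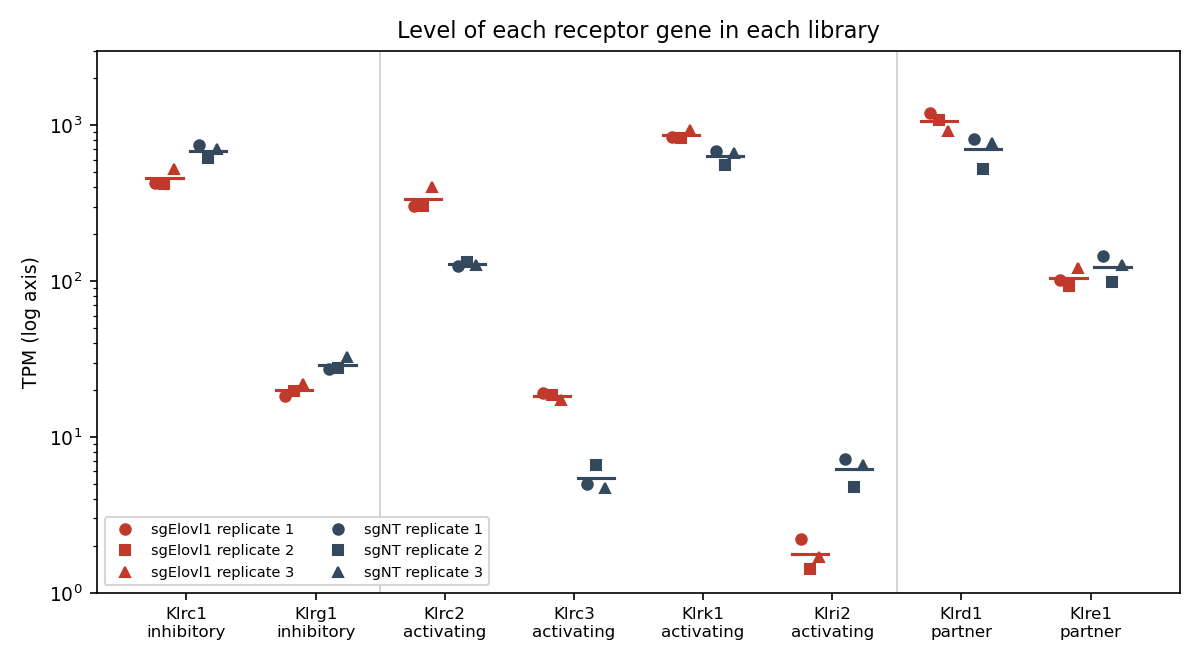
TPM on a log axis for the 8 tested receptor genes, grouped by role, with 1 point per library (red sgElovl1, blue sgNT, shape by replicate number) and a bar at the mean of 3 libraries. The groups are apart for 7 genes and overlap for Klre1, and Klri1, at or below 0.22 TPM, is not drawn.

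Of the 8 tested receptors, 5 were called, 2 higher and 3 lower in sgElovl1, against 13.8% of all genes. Normalised CPM did not overlap between the groups for 7 of the 8, against 37.1% of all tested genes. By role, both tested inhibitory genes (Klrc1 and Klrg1) fell, and of the 4 activating genes, Klrc2 and Klrc3 rose, Klri2 fell and Klrk1 did not pass the test. Of the partner chains Klrd1 and Klre1, 0 of 2 passed edgeR's test, 1 of them (Klrd1) having an unadjusted p under 0.05. The median log2 fold change of the 8 tested members was 0.03, against 0 for all tested genes.

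**Figure D2:**
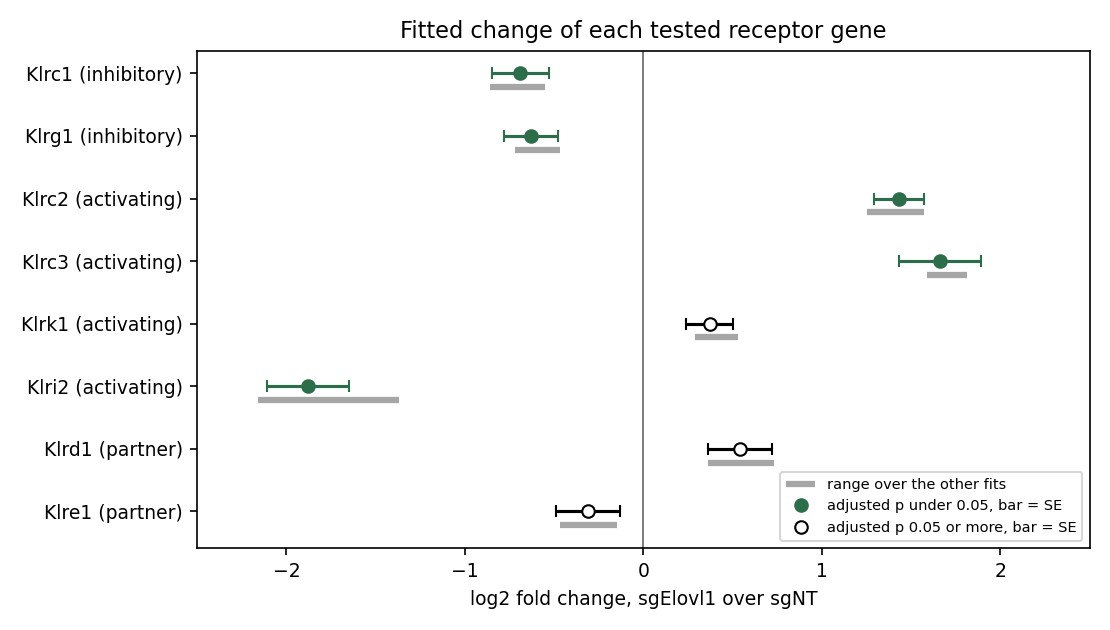
Log2 fold change of sgElovl1 over sgNT for the 8 tested receptor genes by role, with the SE, derived from edgeR's F statistic, as a bar. Points are filled for an adjusted p under 0.05, and below each point a grey band gives the range over 15 other fits. Klrc2 (1.43) and Klrc3 (1.66) lie to the right of 0, Klrc1 (-0.69), Klrg1 (-0.63) and Klri2 (-1.88) to the left, and no band crosses 0.

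Klrc1, encoding the inhibitory chain NKG2A (ENSMUSG00000030167, chr6:129666015-129678973), fell by 0.69 on the log2 scale in sgElovl1. Its TPM was 424, 418 and 524 in sgElovl1 and 741, 616 and 701 in sgNT. Every sgElovl1 library was below every sgNT library. In normalised CPM the means were 559 ± 108 and 905 ± 121 (SD, n = 3). The quasi-likelihood test of edgeR gave an adjusted p of 0.0186, and the SE derived from its F statistic was 0.16. The call was lost when sgElovl1 replicate 1 (adjusted p = 0.0808), sgElovl1 replicate 2 (0.121) or sgNT replicate 1 (0.0772) was left out, with the log2 fold change between -0.86 and -0.60 when any 1 library was left out.

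Klrg1, encoding the other measurable inhibitory receptor (ENSMUSG00000030114, chr6:122270596-122282882), fell by a like amount from a much lower level. It had 18.3, 19.6 and 21.7 TPM in sgElovl1 and 27.2, 27.5 and 32.6 TPM in sgNT. The groups did not overlap, at 21.4 ± 2.43 against 33.0 ± 5.17 normalised CPM (SD, n = 3). The log2 fold change was -0.63 (SE 0.15, edgeR adjusted p = 0.021). This call held without sgElovl1 replicate 3 (0.013) and was lost without any other library: the adjusted p was 0.0948 and 0.117 without sgElovl1 replicates 1 and 2, and 0.0513, 0.0577 and 0.0584 without sgNT replicates 1, 2 and 3. With an offset for gene length it was 0.0569.

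Klrc2, encoding the activating chain NKG2C (ENSMUSG00000052736, chr6:129647496-129660689), moved the other way. Its TPM was 303, 304 and 398 in sgElovl1 against 124, 133 and 126 in sgNT. The lowest sgElovl1 library was above 2 times the highest sgNT library. The fitted change was 2.69-fold (log2 fold change 1.43, SE 0.14, edgeR adjusted p = 0.00056), and the gene was called in all 15 other fits, with log2 fold changes between 1.25 and 1.57.

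Klrc3, encoding NKG2E (ENSMUSG00000033027, chr6:129639064-129643337), rose with it from a far lower level. It had 202, 194 and 154 expected counts in sgElovl1 and 50, 69 and 50 in sgNT, or 19.2, 18.5 and 17.3 TPM against 5.02, 6.64 and 4.73 TPM. All sgElovl1 libraries were above all sgNT libraries. The log2 fold change was 1.66 (SE 0.23, edgeR adjusted p = 0.0021), and the call held in all 15 other fits. The ratio of Klrc2 to Klrc3 TPM was 18.4 ± 4.0 in sgElovl1 and 23.8 ± 3.37 in sgNT (SD, n = 3), and the groups overlapped.

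The paralogs share sequence, which bears on how reads were split between them. Of the 50-base windows of their transcripts, 38.6% of Klrc1, 16.3% of Klrc2 and 36.3% of Klrc3 recurred in another gene, in each case another Klrc gene. Expected counts, which RSEM gives as fractions where it shares reads out between genes, were over 0.005 away from a whole number in 6 libraries for Klrc1 and Klrc2, in 4 for Klrc3 and in 0 for the other members. In sgNT replicates 1 and 3 Klrc3 was whole at 50 counts, while Klrc1 (23194.93 and 23198.85) and Klrc2 (2736.07 and 2920.15) were fractional, so reads were shared out between Klrc1 and Klrc2 too. The division of reads among all 3 genes is therefore uncertain, which bears on the fall of Klrc1, the rises of Klrc2 and Klrc3, and the ratio and shares of these genes given below. The 3 genes summed, a check added after the data were seen, had 20628, 21164 and 23553 expected counts in sgElovl1 and 25981, 22618 and 26169 in sgNT, and as 1 feature in edgeR did not pass the test (log2 fold change -0.22, SE 0.16, adjusted p = 0.367).

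Within the family, the make-up of the transcripts differed while the sum overlapped. Klrc1 held 56.9, 56.5 and 55.8% of the summed Klrc1, Klrc2 and Klrc3 TPM in sgElovl1 and 85.2, 81.5 and 84.3% in sgNT. Klrc2 held 40.6 to 42.3% in sgElovl1 and 14.3 to 17.6% in sgNT. The ratio of Klrc1 to Klrc2 TPM was thus 1.37 ± 0.0428 in sgElovl1 and 5.39 ± 0.696 in sgNT (SD, n = 3), with no overlap. The summed TPM of the 3 genes ran from 740 to 939 in sgElovl1 and from 756 to 870 in sgNT. With 3 libraries a group an exact permutation test cannot give a p under 0.10, and none is given for these sums.

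**Figure D3:**
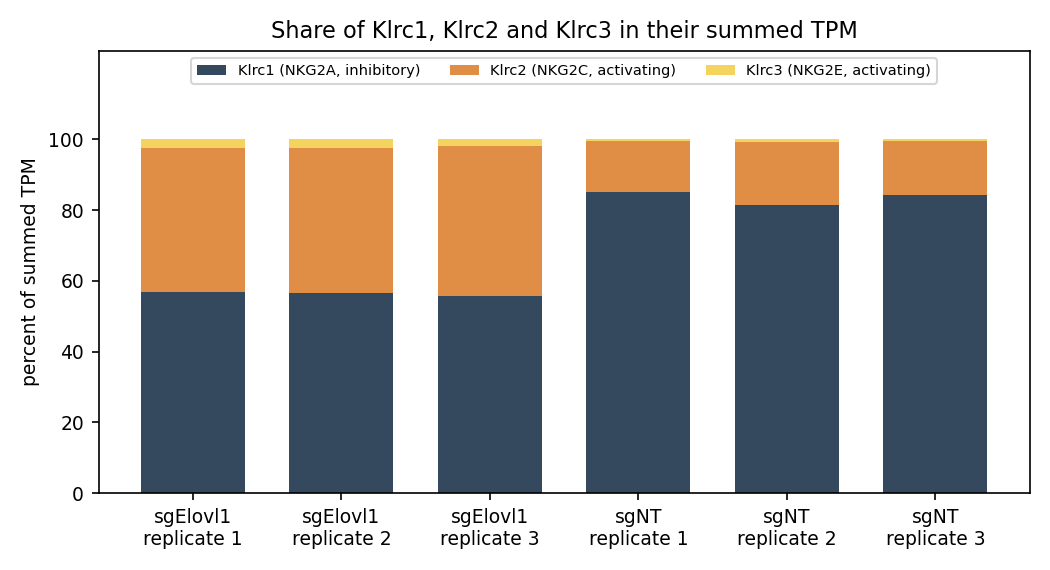
Share of Klrc1, Klrc2 and Klrc3 in their summed TPM for each of the 6 libraries, stacked to 100%. Klrc1 takes 55.8 to 56.9% in the sgElovl1 libraries and 81.5 to 85.2% in the sgNT libraries.

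The sequence around the RefSeq starts was compared between Klrc2 and Klrc3, which rose, and Klrc1, which fell. These starts are not at like positions. Those of Klrc2 and Klrc3 are at the first coding base, and that of Klrc1 is at the first base of its gene, before its coding bases. A difference between the windows can thus come from position alone, and its part in the changes was not tested. The RefSeq window of 250 bases before to 50 after the start (GRCm38.p6, minus strand, 5′ to 3′) is shown for chr6:129678924-129679223 (Klrc1), chr6:129660507-129660806 (Klrc2) and chr6:129643239-129643538 (Klrc3), with matches to RUNX letters and to a ZEB-type E-box in capitals.
Klrc1: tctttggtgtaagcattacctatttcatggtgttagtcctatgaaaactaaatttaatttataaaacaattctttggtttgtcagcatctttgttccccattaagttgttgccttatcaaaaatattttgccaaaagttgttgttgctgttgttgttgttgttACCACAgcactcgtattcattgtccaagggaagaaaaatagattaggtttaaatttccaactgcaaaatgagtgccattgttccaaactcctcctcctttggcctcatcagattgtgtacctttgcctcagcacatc
Klrc2: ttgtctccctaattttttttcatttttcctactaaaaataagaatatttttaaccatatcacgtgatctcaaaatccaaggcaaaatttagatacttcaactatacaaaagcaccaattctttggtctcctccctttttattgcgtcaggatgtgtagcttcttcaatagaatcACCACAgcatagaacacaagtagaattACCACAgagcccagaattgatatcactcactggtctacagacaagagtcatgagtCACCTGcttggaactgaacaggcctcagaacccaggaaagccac
Klrc3: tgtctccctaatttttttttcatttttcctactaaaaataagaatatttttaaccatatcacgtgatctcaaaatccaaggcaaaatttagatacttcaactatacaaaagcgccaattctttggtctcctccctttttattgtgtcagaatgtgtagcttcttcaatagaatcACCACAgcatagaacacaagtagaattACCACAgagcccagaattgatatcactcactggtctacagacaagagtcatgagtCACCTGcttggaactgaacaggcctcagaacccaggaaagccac
The windows of Klrc2 and Klrc3 were identical at 99.0% of 299 aligned bases, and those of Klrc1 and Klrc2 at 60.5% of 261. All pairs of windows from different members, other than Klrc2 with Klrc3, gave 55.3 to 66.0%. The value for Klrc1 and Klrc2 thus lay within the range of the other members. Letters of 6 factor families were searched on both strands. For T-box factors these were AGGTGT, and for the E-box of ZEB factors CAGGTG, whose last bases overlap with the T-box letters. For TCF and LEF factors they were CTTTGA, and for RUNX factors TGTGGT. For ETS factors GGAAGT was used, and for GATA factors AGATAA. Matches to T-box, TCF and LEF, ETS and GATA letters were 0 in the 3 windows shown, against 11.2 to 23.8% of all windows that held them. RUNX letters occurred 2 times in Klrc2 and Klrc3 and 1 time in Klrc1, all read as ACCACA on the printed strand, and 16.8% of 32851 windows of the same length held them. The 2 RUNX matches of Klrc2 lie within its annotated gene, which begins at 129660689 on the minus strand. E-box letters occurred 1 time in Klrc2 and Klrc3, within their first coding bases, and in 20.2% of all windows. Klrc2 has another RefSeq start, with the window chr6:129660547-129660846, which held the 2 RUNX matches and 0 E-box matches. Windows of 6 of the 9 members were searched, and Klrd1, Klri2 and Klrg1 were not analysed here. RUNX letters also occurred in the windows of Klrk1 and Klre1, genes that were not called. The Klrk1 window held TCF and LEF letters too. Another Klre1 window and that of Klri1 held 0 matches.

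Klrk1, encoding NKG2D (ENSMUSG00000030149, chr6:129610323-129623864), was the most abundant activating gene in both groups. Its TPM was 838, 831 and 928 in sgElovl1 and 681, 552 and 661 in sgNT. The groups did not overlap, yet the change did not pass edgeR's test (log2 fold change 0.37, SE 0.13, adjusted p = 0.0817). It was called by DESeq2 (adjusted p = 0.0294), a test that called 17.1% of its genes, with the gene length offset (0.0243), and with replicate 3 of each group left out (0.0376).

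Klri2, encoding an activating partner of KLRE1 (ENSMUSG00000043932, chr6:129729041-129740484), fell by 1.88 on the log2 scale, the largest change among the 8 tested receptors. It had 198, 131 and 133 expected counts in sgElovl1 and 619, 418 and 617 in sgNT. The highest sgElovl1 library, at 2.20 TPM, was below the lowest sgNT library, at 4.75 TPM. The SE was 0.23 and the edgeR adjusted p 0.0016, and the gene was called in all 15 other fits, with log2 fold changes between -2.16 and -1.37. Among the 4 activating genes it was the 1 called lower.

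The partner chains were not called by edgeR, and their fitted changes were smaller than those of the chains they pair with. Klrd1, encoding CD94 (ENSMUSG00000030165, chr6:129591782-129598775), had 1191, 1074 and 919 TPM in sgElovl1 and 818, 524 and 768 TPM in sgNT. The groups did not overlap, but the log2 fold change of 0.54 (SE 0.18) missed the threshold in edgeR (adjusted p = 0.0706). It passed with DESeq2 (0.018), without the filter on low counts (0.0213) and with the gene length offset (0.0359). The ratio of Klrd1 TPM to the summed TPM of Klrc1, Klrc2 and Klrc3 was 1.60, 1.45 and 0.979 in sgElovl1 and 0.940, 0.693 and 0.924 in sgNT. Klre1 (ENSMUSG00000050241, chr6:129577905-129585827) had 102, 92.4 and 121 TPM in sgElovl1 and 145, 98.4 and 126 TPM in sgNT. These values overlapped, and the change was not called (log2 fold change -0.31, SE 0.18, edgeR adjusted p = 0.251). Klri2 TPM came to 1.40 to 2.16% of Klre1 TPM in sgElovl1 and 4.83 to 5.25% in sgNT.

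Summed over roles, the inhibitory genes (Klrc1, Klri1 and Klrg1) held 27.6, 27.5 and 28.9% of the inhibitory plus activating TPM in sgElovl1 and 48.5, 48.0 and 47.9% in sgNT. The mean of sgElovl1 minus that of sgNT was -20.1 percentage points, with SDs of 0.776 and 0.299 (n = 3). The inhibitory sum was 438 to 546 TPM in sgElovl1 and 643 to 769 TPM in sgNT, and the activating sum (Klrc2, Klrc3, Klrk1 and Klri2) was 1154 to 1344 TPM and 696 to 817 TPM. Klrc1, Klrc2 and Klrk1 made up nearly all of these sums, so the share does not describe Klri2 or Klrg1.

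Of the 9 genes, 8 form 1 cluster of 162.6 kilobases on chromosome 6 in the order Klre1, Klrd1, Klrk1, Klrc3, Klrc2, Klrc1, Klri1 and Klri2, and Klrg1 lies 7.3 megabases away. Members that rose, fell or were not called lay side by side along it: Klrc3 and Klrc2, which rose, are flanked by Klrk1, not called, and Klrc1, which fell. No other gene of the annotation overlapped a member on either strand. Of the other 12 tested genes within 500 kilobases on either side, a window chosen with results known, 5 were called, 4 higher and 1 lower, or 41.7% against 13.8% of all genes. On one side these were Clec12a (1.12), Clec7a (3.37) and Olr1 (2.60 on the log2 scale of sgElovl1 over sgNT), which myeloid cells express. On the other were Gm156 (-1.81), next to Klri2, and Klra17 (2.39), a Ly49 gene. The nearest tested gene before Klre1, Gabarapl1, had a log2 fold change of -0.01.

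**Figure D4:**
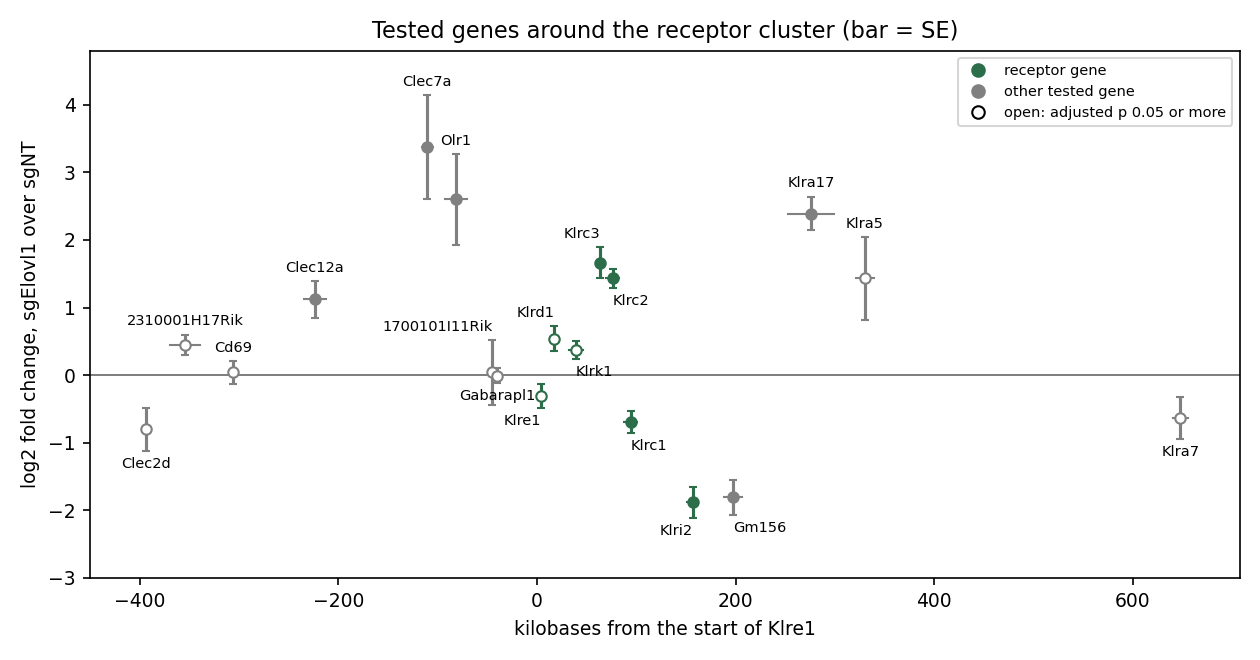
Log2 fold change of sgElovl1 over sgNT, with SE, for the tested genes around the receptor cluster against the distance from the start of Klre1 in kilobases (green receptor genes, grey other genes, open points for an adjusted p of 0.05 or more). Rising and falling genes lie side by side, from Klrc3 at 1.66 to Klri2 at -1.88.

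The related NKR-P1 genes lie before Klre1 in the same complex, and the Ly49 genes lie beyond Klri2. Of 20 in the annotation, 9 were tested and 5 called, against 13.8% of all tested genes: Klra17 (log2 fold change 2.39) and Klra1 (2.05) rose, and Klra3 (-2.66), Klrb1c (-2.37) and Klrb1b (-1.72) fell. All 5 were at or below 11.5 normalised CPM in every library, and expected counts were fractional in some libraries for Klrb1b and Klrb1c and whole in all 6 for Klra17, Klra1 and Klra3. Klra5, the most abundant gene of the list, was not called (log2 fold change 1.43, SE 0.61, edgeR adjusted p = 0.192). It had 241, 185 and 479 normalised CPM in sgElovl1 and 91.8, 61.2 and 182 in sgNT, without overlap. Shared sequence was not measured for these families. The list had 2 calls with sgElovl1 replicate 2 left out and 3 with sgNT replicate 2 or 3 left out.

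Downstream of the activating chains, 3 of 13 tested adaptors and kinases were called, against 13.8% of all tested genes. Pik3cd (log2 fold change 0.63) and Pik3r1 (0.52), a catalytic and a regulatory subunit of PI3 kinase, rose, and Grb2, an adaptor that DAP10 binds, fell by 0.57. Hcst, the DAP10 gene that NKG2D needs, had 107, 81.0 and 89.2 normalised CPM in sgElovl1 and 108, 96.2 and 129 in sgNT (log2 fold change -0.27, SE 0.14, adjusted p = 0.224). Tyrobp, encoding the DAP12 adaptor of NKG2C and NKG2E, was low, at 4.93, 5.43 and 13.8 normalised CPM in sgElovl1 and 3.49, 0.780 and 6.00 in sgNT (log2 fold change 1.23, SE 0.82, adjusted p = 0.366). Tyrobp is also a myeloid gene, and its highest library in each group was the third, as for the summed macrophage markers, a list that includes it. The list median was -0.24 against 0 for all genes. The count fell to 0 when sgElovl1 replicate 1, sgElovl1 replicate 2 or sgNT replicate 2 was left out and to 1 when sgNT replicate 1 was, and was 8 with replicate 3 of each group left out.

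On the inhibitory side, 4 genes were listed (the phosphatase genes Ptpn6, Ptpn11 and Inpp5d, and the kinase gene Csk), and 2 were called in opposite directions, against 13.8% of all tested genes. Ptpn11, encoding SHP-2, fell by 0.73 on the log2 scale (adjusted p = 0.00644), and Inpp5d, encoding the lipid phosphatase SHIP1, rose by 0.41 (adjusted p = 0.0284). The count was 3 with the replicate block, DESeq2 or limma-voom. Ptpn6, encoding SHP-1, missed the threshold (log2 fold change -0.36, adjusted p = 0.0541), although its groups did not overlap. With replicate 1 or 2 of either group left out, 1 gene was called, and with replicate 3 of each group left out 4 were. Of 13 ligand genes, 9 were matched in the tables, 3 were tested and 0 called by edgeR, DESeq2 or limma-voom, with 1 at an unadjusted p under 0.05. With sgElovl1 replicate 3 left out 1 was called. H2-T23, encoding Qa-1, had 510 to 761 normalised CPM in sgElovl1 and 605 to 828 in sgNT (log2 fold change -0.09, SE 0.17), and Ulbp1, encoding the NKG2D ligand MULT1, 11.3 to 14.8 and 9.71 to 10.5 (0.39, SE 0.16, adjusted p = 0.125).

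Among 13 transcription factors of effector and memory CD8+ T cells, 3 were called, against 13.8% of all tested genes. Zeb2, a repressor that promotes terminal effector differentiation, had 27.5, 24.7 and 24.4 normalised CPM in sgElovl1 and 13.3, 8.50 and 11.9 in sgNT (log2 fold change 1.18, adjusted p = 0.00299). Bach2, which restrains effector genes, rose by 1.07 and Nfil3, known from NK cell development, fell by 0.46 on the log2 scale. The count was 4 with the replicate block, 1 with sgElovl1 replicate 2 left out, 6 with sgElovl1 replicate 3 left out and 7 with replicate 3 of each group left out. Of 10 tested effector and memory markers, 1 was called, a share below the 13.8% of all tested genes: Ccr7, a homing receptor of naive and central memory cells, rose by 1.20 on the log2 scale. With the replicate number as a block 3 of the 10 were called, as with replicate 3 of each group left out. The count was 0 when sgElovl1 replicate 1, sgElovl1 replicate 2 or sgNT replicate 1 was left out and 2 when replicate 3 of either group was.

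Genes nearest in profile were found by the distance between log2 CPM over the 6 libraries, each centred on its own mean, and nothing follows from it on shared function. They were Il12rb1 for Klrc1 (distance 0.209), Cd80 for Klrc2 (0.298), Nrip1 for Klrc3 (0.42), Ero1lb for Klrd1 (0.114) and Bclaf1 for Klrk1 (0.112). For Klre1 and Klrg1 they were Fgfrl1 (0.216) and Glrx (0.0932). Fgfrl1 was near the floor, at 0.351 to 0.639 normalised CPM, against 75.6 to 131 for Klre1. The nearest gene to Klri2 was Elovl1 itself, but at a distance of 0.784, larger than for any other tested receptor.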

How the data were processed

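Bulk RNA from 6 libraries of sorted OT-I T cells was sequenced by the authors after SMARTer pre-amplification. Per the submitters' processing notes, the build was mm10, STAR 2.7.7a aligned the reads, RSEM 1.3.1 estimated gene levels and DESeq2 1.36.0 served for their comparison. The annotation release is not given in the sources used here. The deposited tables give expected counts (estimated reads per gene, not scaled between libraries), TPM and gene lengths. Of 55471 gene IDs, 55230 matched a symbol in GENCODE M21 (GRCm38, the assembly of mm10), from which positions, coding bases and residues were taken. Promoter windows came from RefSeq.

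Expected counts were rounded and tested with edgeR 4.0.16 in R 4.3.3: filterByExpr with a minimum count of 10, TMM normalisation, robust quasi-likelihood fits with group as the only term, and Benjamini-Hochberg adjustment over 12546 genes. Each SE was derived as the absolute log2 fold change over the square root of edgeR's F statistic. The biological coefficient of variation was 0.22. Levels between genes were compared as TPM. No pair of libraries was identical. Replicate numbers are shared between the groups, and same-numbered libraries deviated together (r across genes of 0.212, 0.245 and 0.405), every r being over 0.1, the rule used here for taking numbers as pairs. Libraries of different numbers also correlated among replicates 1 and 2 (0.169 for sgElovl1 1 with sgNT 2 and 0.107 for sgElovl1 2 with sgNT 1). The third libraries stood apart from these, with r between -0.294 and -0.233. These r of different numbers among replicates 1 and 2 pass the same rule, so it cannot show that numbers are pairs. The main fit did not use the numbers. A fit with the replicate block was run beside the main one. P-values measure the spread between these samples. Steps were tested on simulated data.

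The alternatives were DESeq2 1.42.0, limma-voom and TPM tests with pseudocounts of 1 and 0.1 (limma 3.58.1), another normalisation, no filter, the replicate block, a gene length offset and each library left out. Leaving out replicate 3 of each group, the summed Klrc genes and the share without Klrk1 were added after seeing the data. The receptors, gene lists and roles were chosen with earlier results of these data known. The genes named are all 9 receptors, Elovl1, every called gene of each list or else the 2 with the smallest p, and the nearest gene in profile to each receptor. Clec12a, Clec7a, Olr1, Gm156, Gabarapl1, Hcst, Tyrobp, Fcer1g, Ptpn6, Ncr1, Klra5, Klra8, Klra9, Trac, Cd3e and Trdc were named outside that rule, with their values known. So were Cd68, Lyz2, Adgre1, C1qa, C1qb, Csf1r, Fcgr1, Itgam and Apoe. For CD8 T cell, NK cell, macrophage and tumour epithelium markers the values stand in the report. The summed TPM of dendritic cell markers was 12.9 to 16.4 in sgElovl1 and 9.48 to 14.5 in sgNT, and of B cell markers 6.68 to 10.0 and 7.55 to 8.53. For CD4 and regulatory T cell markers it was 2.90 to 4.91 and 1.77 to 4.64, with 2 tested, 1 called higher and 1 lower. For gamma delta T and NKT cell markers it was 52.1 to 63.5 and 65.0 to 79.0. Of these 4 markers 2 were matched, Trdc made up nearly all of the sum, and the 1 tested was called lower.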

Additional observations from a re-analysis of the deposited data

How the results depend on the processing

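Klrc2, Klrc3 and Klri2 kept their direction and their call in all 15 other fits, and no tested receptor reversed. Over the 8 tested receptors and 15 fits, 105 of 120 results stayed on the same side of the threshold, 9 lost it (Klrc1 and Klrg1) and 6 gained it (Klrd1 and Klrk1). DESeq2 and the gene length offset each called 4 receptors higher. With 1 library left out, 1 to 3 receptors were called lower and 2 higher, and over all genes 279 to 1414 were called higher and 42 to 1304 lower. With replicate 3 of each group left out, an alternative added after seeing the data, 1947 genes were higher and 2039 lower, against 1084 and 643. The length offset gave 717 higher, DESeq2 1041 lower, and TPM with pseudocounts of 1 and 0.1 gave 135 and 139 lower. The cause of these shifts was not tested. The replicate block, which pairs libraries of the same number, called the same numbers of receptors (2 higher, 3 lower; Klrd1 adjusted p = 0.0509) and changed no other call among the receptors. The difference in inhibitory share was -20.6 to -19.9 percentage points with 1 library left out and -26.3 without Klrk1. Counts of called genes in the lists stayed within 1.5 times in 56 of 90 cases, with 21 lower and 13 higher. Depth limits Klri1, which was not tested.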
